A study of Drosophila melanogaster with 24 samples.

Results

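The 7 cyclin genes CycA, CycB, CycB3, CycD, CycE, CycG and CycJ of Drosophila melanogaster were examined for intervals occupied by Stwl and by BEAF in ovaries. They are 7 of the 13922 protein-coding genes on chromosome arms 2L, 2R, 3L, 3R, 4 and X. They were taken by name and not by a measured value, though with earlier results of these data known. CUT&RUN, in which an antibody directs a nuclease to cut and release the DNA around its target, was applied to whole dissected ovaries. Stwl, which the labels call a transcription factor, was profiled in ovaries labelled bam GKD, a knockdown of the differentiation gene bam that the labels assign to undifferentiated stages, and in ovaries labelled WT, assigned to differentiated stages. BEAF, described as a boundary element, was profiled in WT ovaries. The labels do not state the driver of the knockdown, the age of the flies or how many ovaries were pooled. Each of these 3 groups had 1 list of intervals, so no value below has a replicate error and no difference between lists was tested.

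Cyclins are the regulatory subunits that switch on cyclin dependent kinases, and their timed synthesis and destruction drives cells through DNA replication and division. CycD works with Cdk4 in growth and CycE with Cdk2 at the start of replication, while CycA, CycB and CycB3 work with Cdk1 in mitosis and meiosis. In the ovary these proteins serve the dividing germline stem cells and cysts, the endoreplicating nurse and follicle cells, and the meiotic divisions of the oocyte.

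On the 6 arms the Stwl bam GKD list held 12857 intervals (median width 807 bp), the Stwl WT list 8576 (721.5 bp) and the BEAF WT list 5083 (236 bp). The deposited lists give coordinates only, on dm6, so read depth and the strength of an interval are unknown. A list from a deeper library can hold more and wider intervals, which limits any comparison of one list with another. A gene was called where an interval reached within 500 bp of either annotated end, and intervals lying only between these windows were counted as inside the gene. Ends are named lower and upper by coordinate, because the annotation used gives no strand.

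In bam GKD, Stwl was found within 500 bp of an end at 5 of the 7 cyclin genes (CycA, CycB3, CycD, CycE and CycG), where 61.4% of all protein-coding genes were called. In WT it was found at 6, the same 5 and CycB, where 55.7% of all genes were called. Stwl was thus at an end in both genotypes at 5 cyclin genes, in WT only at 1 and in bam GKD only at 0, where these states held for 49.6%, 6.18% and 11.8% of all genes. BEAF lay at 5, namely CycA, CycB, CycD, CycE and CycG, where 28.1% of all genes were called. The genes with Stwl in bam GKD and those with BEAF both numbered 5, but only the Stwl set held CycB3 and only the BEAF set held CycB. CycA, CycD, CycE and CycG carried all 3 lists, as did 24.3% of all genes. CycJ carried none at its ends or inside, as did 28.8% of all genes, and 31.3% had none at their ends. Of the 14 gene ends, 8 were called for Stwl in bam GKD, 10 for Stwl in WT and 6 for BEAF, against 44.9%, 39.2% and 16.9% of the ends of all protein-coding genes. Both ends were called at 3 genes for Stwl in bam GKD (CycA, CycD and CycE), at 4 for Stwl in WT (these and CycB) and at CycA for BEAF, where 28.5%, 22.6% and 5.73% of all genes had both ends called. An interval touched the gene itself at 4 cyclin genes in Stwl bam GKD, 6 in Stwl WT and 5 in BEAF, against 48.3%, 45.7% and 22.9% of all genes.

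**Figure D1:**
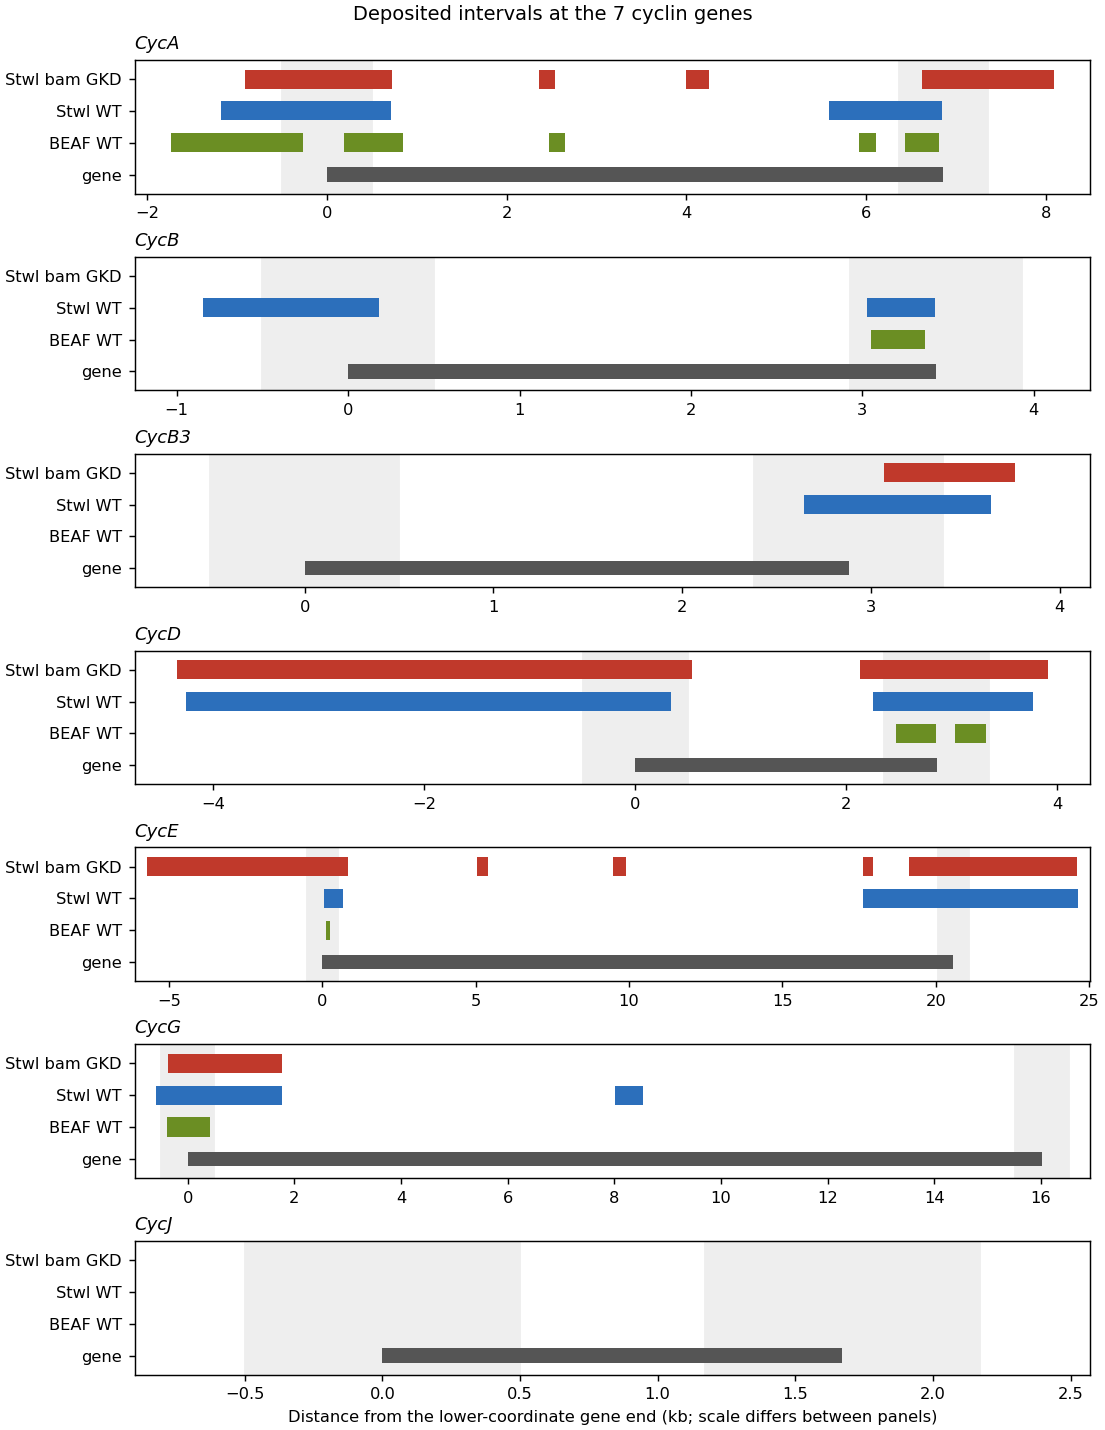
Intervals that reach each cyclin gene or its 500 bp flanks, with distance from the lower-coordinate gene end in kb on the horizontal axis, lists as rows, the gene as a dark bar and the 500 bp windows at both ends shaded. CycB has no Stwl bam GKD interval, CycB3 no BEAF interval and CycJ none at all.

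CycE, the cyclin of replication onset and of the endocycle, is the longest of the 7 (2L, 15727581 to 15748150, 20570 bp). Both its ends were called for Stwl in both genotypes, but the intervals differed in extent. At the lower end the bam GKD interval ran from 15721867 to 15728408 (6542 bp) and left the gene by 5714 bp, while the WT interval ran from 15727639 to 15728256 (618 bp) and lay within the gene. The WT interval was held whole by the bam GKD interval, of which it made up 9.45%. At the upper end the interval measured 5490 bp in bam GKD and 7013 bp in WT. The WT interval (15745199 to 15752211) spanned 2 bam GKD intervals, of 305 and 5490 bp. The outer edges of these 2 (15745219 and 15752192) lay close to those of the WT interval.

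The upper CycE intervals reached 4042 bp beyond the gene in bam GKD and 4061 bp in WT. There they also held an end of ND-B17, a subunit gene of respiratory complex I, and of 3 noncoding genes, lncRNA:CR44974, asRNA:CR44866 and snRNA:U5:35D, so they cannot be assigned to CycE alone. Inside CycE and at neither end, the bam GKD list had 3 narrow intervals of 385, 444 and 305 bp. The last of these was covered by the wide WT interval, and the other 2 had no WT partner. BEAF had 1 interval of 147 bp at the lower end, inside the Stwl intervals of both genotypes. That is the smallest width in the BEAF list, which makes it the thinnest call among these genes.

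CycD, the partner of Cdk4 (X, 15906822 to 15909676), had Stwl at both ends in both genotypes, with nearly the same outlines. The lower interval measured 4887 bp in bam GKD and 4593 bp in WT, and the upper one 1783 bp in bam GKD and 1511 bp in WT. Both WT intervals lay whole within their bam GKD counterparts. Most of the lower interval lay outside CycD, by 4347 bp in bam GKD and 4260 bp in WT, across the end of shi, the dynamin gene, which lies 105 bp away. Stwl covered 58.8% of CycD and its flanks in bam GKD and 50.1% in WT, the highest shares of the 7 in both lists. At the upper end 2 BEAF intervals of 377 and 293 bp lay entirely within the Stwl intervals, to either side of the gene end. No BEAF interval reached the lower window of CycD.

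CycA, a mitotic cyclin that is needed for entry into division (3L, 11826719 to 11833578), was the gene with the most intervals of the 7. Its lower end carried a Stwl interval of 1640 bp in bam GKD and 1886 bp in WT, with 1620 bp in common. The WT interval ran further from the gene and took in the end of CG32095, which the bam GKD interval did not reach. At the upper end the intervals sat differently. In bam GKD the interval (1467 bp) had 234 bp in the gene and 1233 bp beyond it, where it met the end of CG43064. In WT the interval (1263 bp) lay within the gene, and 223 bp were shared. CycA also held 2 narrow bam GKD intervals in its interior, of 171 and 256 bp, the first within the nested gene CG7264 and the second across its end, with no WT partner. BEAF had 5 intervals at CycA, more than at any other of the 7 genes: 1478 and 660 bp at the lower end, 380 bp at the upper end, and 179 and 190 bp inside. All but the interval of 179 bp overlapped Stwl WT.

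CycB, a mitotic cyclin partnered with Cdk1 (2R, 22803521 to 22806948), was the only one of the 7 called for Stwl in only 1 genotype. In WT it had an interval of 1025 bp across the lower end (22802676 to 22803700) and one of 396 bp at the upper end (22806548 to 22806943). In bam GKD it had none at its ends, inside, or within the wider flanks of 1000 bp. WT only calls were made at 6.18% of all protein-coding genes. BEAF had 1 interval of 318 bp, lying whole within the upper Stwl WT interval.

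The nearest Stwl bam GKD interval lay 46634 bp from CycB, and 1.67% of all protein-coding genes were as far from one or further. CycB stood in a stretch of 110632 bp without any bam GKD interval, longer than 99.4% of the gaps between neighbouring bam GKD intervals (median 3446 bp). Of the 15 protein-coding genes lying whole in that stretch, Stwl WT intervals were found only at CycB and near blw, the gene of an ATP synthase subunit, where 1 measured 353 bp. That interval also lay within 500 bp of an end of CG42260, which is only partly in the stretch. The interval of 1025 bp at the lower end of CycB also came within 500 bp of blw, so it cannot be assigned to CycB alone. The single BEAF interval in the stretch was the one in CycB. Whole ovaries were used and the depth behind each list is unknown. Fewer cells with Stwl at CycB, less Stwl per cell and an interval missed in calling cannot be told apart.

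**Figure D2:**
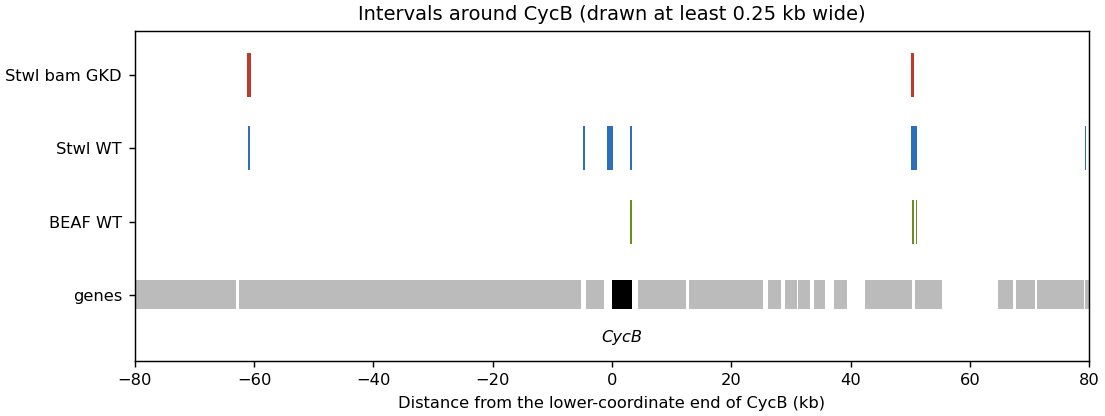
Intervals of the 3 lists (rows) and protein-coding genes (bottom row, CycB in black) by distance in kb from the lower end of CycB. No Stwl bam GKD interval lies in the 110632 bp around CycB, while Stwl WT has 3 intervals and BEAF WT has 1 there.

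CycB3, a mitotic cyclin that also acts in the meiotic divisions of the oocyte (3R, 24867934 to 24870816), had Stwl at the upper end in both genotypes and no BEAF. The bam GKD interval (692 bp) began 188 bp beyond the gene and did not enter it, and the WT interval (987 bp) had 236 bp inside. The intervals shared 564 bp. Both held the end of the neighbour CG3744, which lies 385 bp from CycB3. The bam GKD call at CycB3 was lost when an interval had to touch the gene. The nearest BEAF interval lay 5280 bp away, and 51.5% of all protein-coding genes were as far from BEAF or further.

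CycG, an atypical cyclin tied to growth and to the repair of meiotic DNA breaks (3R, 31596642 to 31612664, 16023 bp), had Stwl at its lower end in both genotypes. The interval measured 2124 bp in bam GKD and lay whole within the WT interval of 2370 bp. The WT interval also held the end of RpL6, a ribosomal protein gene 437 bp from CycG, which the bam GKD interval did not reach. A BEAF interval of 807 bp crossed the same end and lay whole within the WT interval. A further WT interval of 527 bp lay inside the gene with no bam GKD partner. No list had an interval at the upper end, where CycG overlaps Med, the common Smad gene of BMP signalling. The nearest ones were 3209 bp (Stwl bam GKD), 3199 bp (Stwl WT) and 15600 bp (BEAF) away.

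CycJ, a cyclin known for its expression in the ovary and early embryo (3L, 3466428 to 3468098, 1671 bp), is the shortest of the 7. It lies 113 bp from armi, which encodes a piRNA pathway helicase, and overlaps CG14971 by 76 bp. The nearest intervals were 3021 bp (Stwl bam GKD), 3012 bp (Stwl WT) and 3359 bp (BEAF) away. All lay above the gene and overlapped each other, from 3471119 to 3472374 in bam GKD and from 3471110 to 3472336 in WT. Of all protein-coding genes, 22.7%, 30.4% and 57.2% were as far or further from the 3 lists. Short genes were called less often: among genes of up to 2000 bp the shares were 51.7% for Stwl in bam GKD, 44% for Stwl in WT and 20.8% for BEAF. Among the 1976 genes longer than 10000 bp, CycE and CycG included, they were 76.4%, 65.8% and 30.3%.

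**Figure D3:**
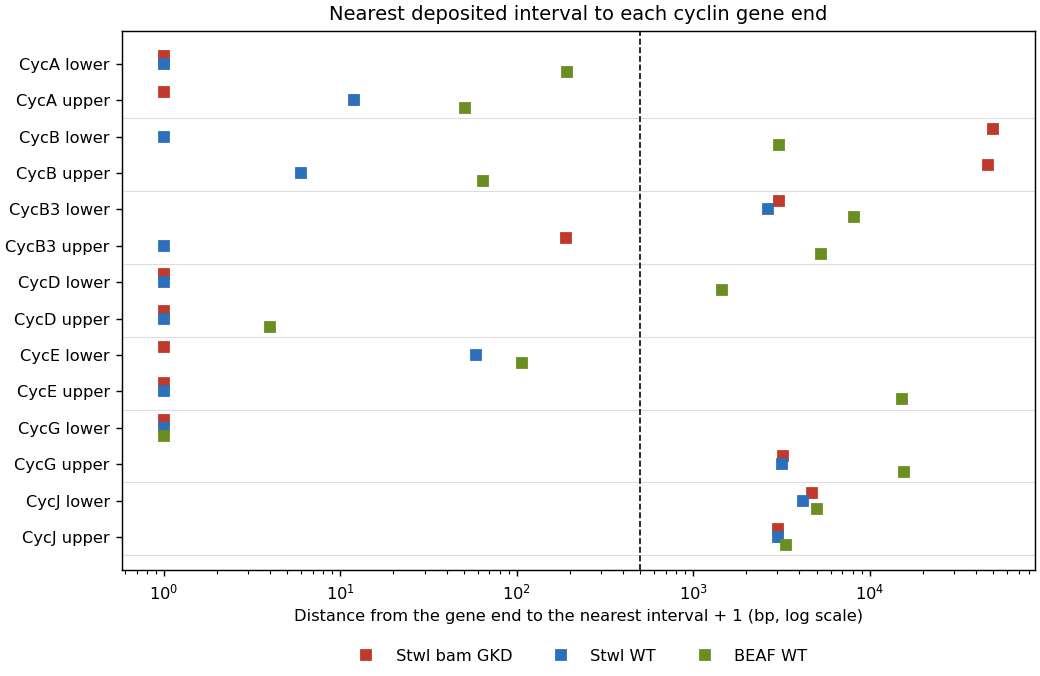
Distance in bp (plus 1, log scale) from each of the 14 cyclin gene ends to the nearest interval of each list, with the 500 bp limit of a call as a dashed line. A point at the left edge is an interval that covers the end, and the Stwl bam GKD points of CycB lie furthest to the right.

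As a measure of extent, not of strength, the bases covered were summed over each gene with its 500 bp flanks. The smallest gap between intervals was 1001 bp in the Stwl lists and 76 bp for BEAF, which limits comparing their coverage. Stwl covered 2390 bp of CycA in bam GKD and 2472 bp in WT. It covered 4410 bp of CycE in bam GKD and 4070 bp in WT, and 2266 bp of CycD in bam GKD and 1932 bp in WT. These 3 genes therefore differed by 82 to 340 bp between genotypes. CycG had 2124 bp in bam GKD and 2802 bp in WT, CycB3 had 313 bp in bam GKD and 736 bp in WT, and CycB had 0 bp in bam GKD and 1076 bp in WT. Bam GKD covered more bases than WT at CycD and CycE, and fewer at CycA, CycB, CycB3 and CycG.

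As shares of the span, coverage by Stwl in bam GKD ordered the genes as CycD (58.8%), CycA (30.4%), CycE (20.4%), CycG (12.5%), CycB3 (8.06%), and CycB and CycJ at 0. In WT the order was CycD (50.1%), CycA (31.5%), CycB (24.3%), CycB3 (19.0%), CycE (18.9%), CycG (16.5%) and CycJ at 0. CycB3 and CycE were separated by under 1 percentage point in WT, and with 1 list no spread is known for any of these values. The median over the 7 genes was 12.5% in bam GKD and 19.0% in WT, against 8.76% in bam GKD and 5.74% in WT over all protein-coding genes. BEAF covered 21.0% of CycA, 17.4% of CycD, 7.18% of CycB, 4.74% of CycG and 0.682% of CycE. Its median over the 7 genes was 4.74%, against 0 over all genes.

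**Figure D4:**
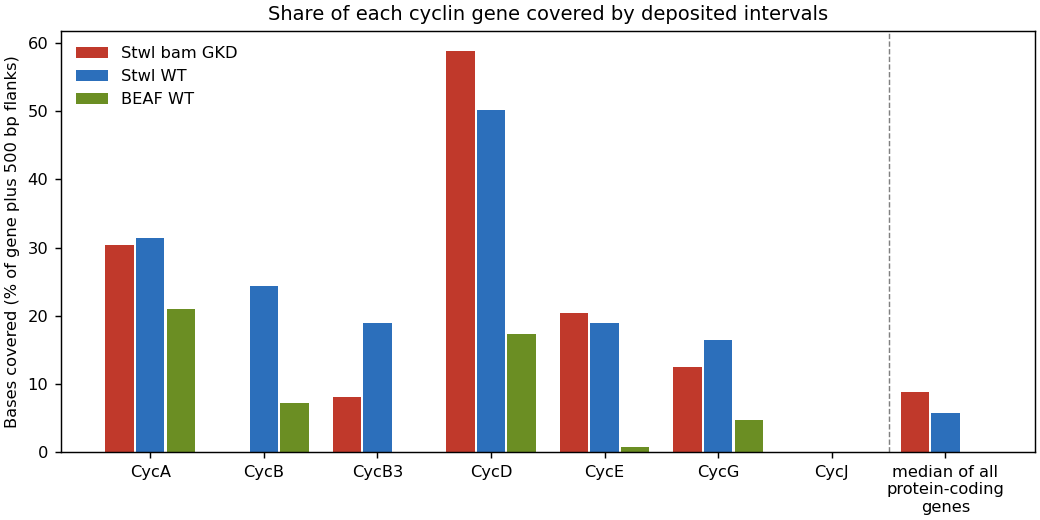
Bases covered by each list as a percentage of the gene plus 500 bp flanks, for the 7 cyclin genes and, right of the dashed line, the median of all protein-coding genes. CycD has the highest Stwl bars (58.8% in bam GKD, 50.1% in WT) and CycJ has none.

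Similar totals did not always mean the same bases. Of the bases covered by Stwl in either genotype, 85.3% were covered in both at CycD and 75.8% at CycG. The share was 51.2% at CycE, 42.5% at CycB3 and 41.7% at CycA. The median over these 5 genes was 51.2%, against 57.7% over the 6899 protein-coding genes with Stwl at an end in both genotypes (quartiles 34.6% and 82.2%). CycA thus combined nearly equal totals in the genotypes with 958 bp held in bam GKD alone and 1040 bp in WT alone.

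Of the 13 bam GKD intervals at cyclin genes, 9 overlapped a WT interval, against 58.5% of all bam GKD intervals in or near protein-coding genes. They were all 8 at an end of a cyclin gene and 1 of the 5 lying only inside one, where the shares over all intervals were 75.4% at an end of any protein-coding gene and 35.2% inside genes at no end. Both interior intervals of CycA lay near an end of the nested CG7264 and would count as at an end by that wider definition. In the other direction 8 of the 11 WT intervals overlapped one of bam GKD, against 85.1% of all WT intervals in or near genes. Those without a partner were both intervals at CycB and the single interior one, in CycG. Over all WT intervals the shares were 86.7% at gene ends and 81.8% inside. In bam GKD the end intervals of cyclin genes were wider than the interior ones. The rule itself favours this, because a wide interval reaches an end window more easily and an interior one must fit between the windows. Widths by place over all genes are not given here, so this difference cannot be read as a trait of cyclin genes. They measured 692 to 6542 bp (median 1953.5 bp) and those inside 171 to 444 bp. In WT the end intervals measured 396 to 7013 bp (median 1387 bp) and the interior one 527 bp, so that the widths overlapped. A wide interval overlaps another more easily than a narrow one, and the part of width in these counts was not tested.

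**Figure D5:**
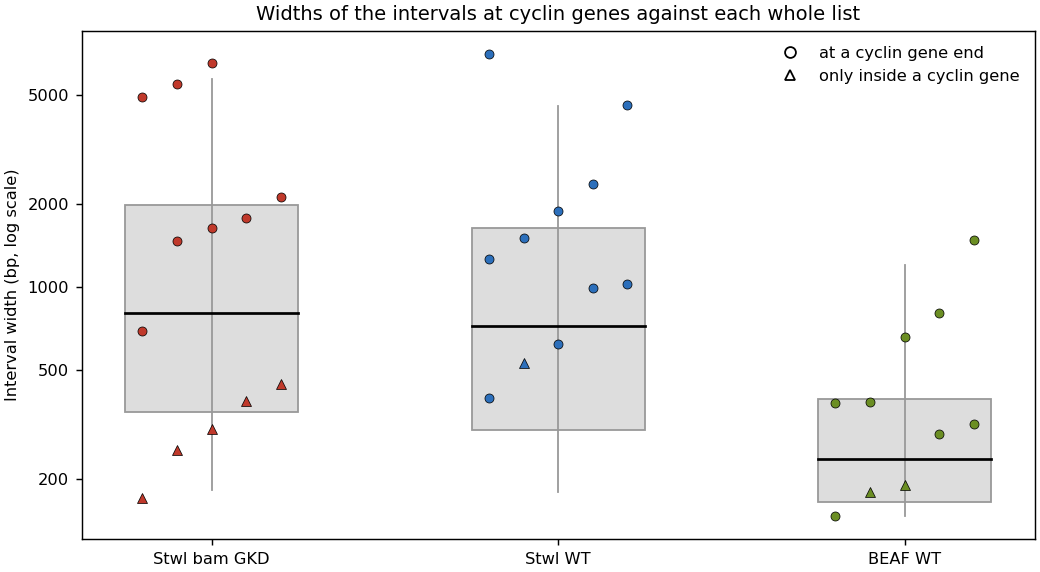
Widths in bp (log scale) of the intervals at cyclin genes, as circles at gene ends and triangles inside genes, over boxes of each whole list (25th to 75th percentile, line at the median, whiskers from the 5th to the 95th percentile). In Stwl bam GKD all 5 triangles (171 to 444 bp) lie below the list median of 807 bp and 7 of 8 circles lie above it. Wide intervals reach an end window more easily, so place and width are linked by the rule.

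Nearly all BEAF intervals at cyclin genes lay on Stwl ones, as did most BEAF intervals in or near protein-coding genes. All 8 BEAF intervals at ends of cyclin genes overlapped a Stwl WT interval. The share over all BEAF intervals at gene ends alone was not computed, so this count has no share to be read against. With the interior ones 9 of 10 overlapped one, against 73.1% of all BEAF intervals in or near protein-coding genes. Of these 10, 5 were at CycA. For Stwl in bam GKD the count was 8 of 10, against 69.5%, and the BEAF interval in CycB was among those without a partner. In the other direction 7 of the 11 Stwl WT intervals at cyclin genes overlapped BEAF. The share over all Stwl WT intervals in or near protein-coding genes was 28.8%. All 5 cyclin genes with BEAF also had Stwl in WT at an end. So did 3678 of the 3916 protein-coding genes with BEAF at an end. The combination was found at 26.4% of all protein-coding genes. Stwl in both genotypes without BEAF, the state of CycB3, was found at 25.2%, and Stwl WT with BEAF but without Stwl in bam GKD, the state of CycB, at 2.11%. The IgG profile was not analysed here, so sites shared by both antibodies through background cannot be told apart from sites that both proteins occupy.

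Partner genes of the cell cycle were examined as a list of 36 chosen by function. They were 6 kinases and their subunits, 4 inhibitors, 2 phosphatases, 14 degradation factors, 5 transcription regulators and 5 other cyclins. Stwl lay at an end of 29 of them in bam GKD and 33 in WT, and BEAF at 20, where 61.4%, 55.7% and 28.1% of all protein-coding genes were called. Among the kinases that cyclins activate, Cdk1, the mitotic kinase (2L), and Cdk4, the partner of CycD (2R), were covered over a larger share of their span than any of the 7 cyclin genes in both genotypes. Stwl covered 100% of Cdk1 and its flanks in both genotypes, and 82.9% of Cdk4 in bam GKD and 100% in WT. Cdk2, the partner of CycE, had 7.49% covered in bam GKD and 6.25% in WT. BEAF was at Cdk2 and Cdk4 and not at Cdk1, where the nearest interval lay 7472 bp away.

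Of the inhibitors, dap, which restrains CycE with Cdk2, had Stwl in both genotypes (20.6% covered in bam GKD, 18.4% in WT) and no BEAF. The gene rux, whose product restrains CycA with Cdk1, had all 3 lists, with Stwl over 81.2% in bam GKD and 42.6% in WT. The Cdc25 phosphatases that switch Cdk1 on stood apart from each other. Stwl covered 38.8% of twe, the phosphatase of meiosis, in bam GKD and 40.9% in WT, and BEAF was there too. None of the lists had an interval at stg, the mitotic phosphatase, where the nearest lay 22445 bp (Stwl bam GKD), 22436 bp (Stwl WT) and 22436 bp (BEAF) away. Cdc16, a subunit of the ubiquitin ligase that marks mitotic cyclins for destruction, was the other partner gene without any interval.

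Stwl at an end in WT only, the state of CycB, was found at 5 of the 36 partner genes, against 6.18% of all protein-coding genes. They were Myt1, an inhibitory kinase of Cdk1, cort, which directs cyclin destruction in female meiosis, ida and Cdc23, subunits of the same ubiquitin ligase, and Dp, the partner of E2F factors. Their coverage in WT ranged from 5.13% (ida) to 27.8% (Dp), and a bam GKD interval lay inside Dp, away from its ends. Distances to the nearest interval of bam GKD were 814 bp for cort, 1782 bp for Cdc23, 1929 bp for ida and 6660 bp for Myt1, all closer than the 46634 bp at CycB. Cks30A, a small Cdk subunit, was the 1 partner gene with Stwl in bam GKD only, against 11.8% of all genes.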

How the data were processed

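Per the submitters' processing notes, the tools were MACS2 2.1.0, Bowtie2 2.2.8, SAMtools 1.9, deepTools 3.2.1, Trim Galore 0.6.6 and FastQC 0.11.8, on dm6. Their roles and settings, the control and any pooling of duplicates are not stated there. The authors deposited interval coordinates per the file headers, with no score, fold or count, so the depth is unknown. The smallest gap between neighbours was 1001 bp in each Stwl list and 76 bp for BEAF. Starts were turned to 1-based. Lists of 3 of 24 samples were used. The remaining 21 were not used here.

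Genes came from the annotation of Release 6 plus ISO1 MT, the dm6 assembly, which was used for names and coordinates. All 7 cyclins and 35 partner genes matched by symbol, and lmg matched lmgA by an older symbol. Overlap meant at least 1 bp. Calls, coverage and overlaps were computed with Python 3.11.15, pandas 2.3.3 and numpy 2.4.6 and were tested on simulated data. With 1 list per group no test was made. Shares over all protein-coding genes stand beside the main counts. The named genes were the 7 cyclins, genes with an end under their intervals, partner genes (the kinases, inhibitors and phosphatases, any gene without an interval) and the gene most alike each cyclin. Partner genes in 1 genotype only, and the surroundings of CycB and CycJ, were named after their values were seen. The cyclins and lists were chosen with earlier results of these data known. The promoter window was not run because the annotation gives no strand.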

Additional observations from a re-analysis of the deposited data

How the results depend on the processing

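No paired analysis was possible because each group has 1 list. Of 66 counts under other settings, 56 stayed within 1.5 times the reported one. With the interval centre inside the window, Stwl in bam GKD fell to 2 cyclin genes (CycA and CycD), Stwl in both genotypes to 2, and Stwl in WT only became 3 (CycB, CycB3 and CycE). The shares over all protein-coding genes moved in the same directions, to 41.8%, 29.7% and 11.4%, from 61.4%, 49.6% and 6.18%. Stwl in WT only became 2 (CycB and CycB3) when the interval had to touch the gene, when lists were cut to their wider 50%, and when all were cut to the same number of widest intervals. Over all protein-coding genes the WT only share also rose under these settings, to 8.63%, 8.7% and 16.3%. CycB was called in WT only, and no cyclin gene in bam GKD only, under each of the 6 settings. None of these settings could add a bam GKD call at CycB, because the nearest such interval lay 46634 bp away. The wider 50% removed the BEAF call at CycE, and 19.3% of all protein-coding genes then had BEAF at an end, against 28.1%. Partner genes with Stwl in bam GKD became 17 with the wider 50% and 15 with equal numbers, which drop bam GKD intervals narrower than 807 and 1184 bp. Over all protein-coding genes the bam GKD share fell as well, from 61.4% to 39.4% and 33.5%. With centres within 250 bp, 4 of the 13 bam GKD intervals at cyclin genes had a WT partner, against 9 reported. By the same rule 4 of the 11 Stwl WT intervals had a BEAF partner, against 7 reported. Shares over all intervals are not given for this rule. The start window could not be run, because the annotation gives no strand. Wide intervals can have centres far from a gene end, so the centre rule can drop them by construction, as in bam GKD at CycE and CycG. The bam GKD interval at CycB3 was dropped although its 692 bp are below the list median of 807 bp. It began 188 bp beyond the gene. Without flanks, 8 of the 16 covered values above 0 fell by over 1.5 times, and with 1000 bp flanks 1 rose by that much. Depth is unknown and limits which narrow intervals each list could hold.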

Other observations

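The genes of CycC, CycH, CycK, CycT and CycY, cyclins that act mainly in transcription or signalling, were all called for Stwl in bam GKD and in WT. They are part of the list of partner genes above. BEAF lay at 3 of these 5, CycH, CycT and CycY. Over all protein-coding genes the shares were 61.4% for Stwl in bam GKD, 55.7% for Stwl in WT and 28.1% for BEAF. Among these and the 7 other cyclin genes, CycB and CycJ were the ones without Stwl in bam GKD.

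The protein-coding gene most alike each cyclin was the one with the smallest of the largest differences in covered share over the 3 lists. It was Pi3K92E for CycA (within 0.293 percentage points), Pex10 for CycB (0.321), Tcs3 for CycB3 (0.352), 14-3-3zeta for CycD (1.49) and CG14711 for CycG (0.892). Pex10, a peroxisome gene, had 0%, 24.6% and 7.21% covered by Stwl in bam GKD, Stwl in WT and BEAF. Within 5 percentage points of CycB in all 3 lists lay 33 other genes, and 9 lay so near CycD. For CycE 2 genes tied, and for CycJ 4014 other genes were likewise without any covered base. With 3 values per gene this likeness is a description and no more.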
